A study of Mus musculus with 12 samples.

Results

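The interferon response and MHC class I genes followed here are 37 mouse genes, taken by their symbols from the 54446 genes listed in each library. They comprise 6 sensors and adaptors of foreign nucleic acid, 5 transcription factors, 21 interferon-stimulated effectors and 5 genes of antigen presentation. Expression is given as TPM, transcript units scaled to the same total in every library, which makes a value a gene's share of the RNA after division by transcript length. A gene was tested where its 12 libraries averaged 1 TPM or more. This left 27 of the 37 members and 15727 of all genes.

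RNA depleted of ribosomal RNA had been sequenced from embryonic stem (ES) cells of 2 lines, KH, the wild type, and DNMT3ABKO, a knockout of Dnmt3a and Dnmt3b, the enzymes that set new DNA methylation. Each line was collected untreated (0 h) and after 72 and 144 h of mTOR inhibition (mTORi) by INK128, which takes ES cells into a paused, diapause-like state. There were 2 libraries in each of the 6 groups, namely KH at 0 h, KH at 72 h, KH at 144 h, DNMT3ABKO at 0 h, DNMT3ABKO at 72 h and DNMT3ABKO at 144 h. Each genotype is represented by 1 line, and the libraries hold no untreated culture at 72 or 144 h, so that treatment and time in culture cannot be told apart. The labels place E14 before both line names, whereas the study's methods call the wild type KH2. Those methods grew KH2 and Dnmt3a/b knockout cells on mitomycin-treated feeders, whose cell type they do not name, and sorted the cells before RNA extraction. For the sort, the reporting summary describes gates on light scatter against doublets and debris. It names no marker there that would separate ES cells from feeders. The study's reporting summary says that experiments were repeated independently and that the time points of a biological replicate were handled in parallel. The labels do not say whether the replicates of these libraries came from separate cultures or whether their numbers mark such sets, so the p-values below measure the spread between these libraries, which may be technical.

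Interferons are secreted proteins that warn cells of infection. Sensors of viral RNA or DNA signal through adaptors to the factor IRF3, which switches on interferon genes, and secreted interferon then acts through its receptors, JAK kinases and factors such as STAT2 and IRF9 on a wide set of stimulated genes. Among these are antiviral effectors and the machinery that loads peptides onto MHC class I molecules, and pluripotent stem cells are known for a weak interferon response compared with differentiated cells such as fibroblasts.

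IRF9, brought together with STAT2, and other IRF factors bind the interferon-stimulated response element (ISRE), and a further element of interferon-responsive promoters is the gamma-activated site (GAS). The 250 bases before the RefSeq gene start are shown for 6 members, chosen to span the ways in which the promoters and the levels differed: Isg15 and Ifit1, with several ISRE cores and falling or very low levels; B2m, with 1 core and a fall; Bst2 and Ifitm2, with cores and high levels that remained; and Irf1, with a GAS core alone. Capitals mark the ISRE core GAAANNGAAA on either strand (TTTCNNTTTC on the other) and the GAS core TTCNNNGAA, which reads the same on both strands. In Bst2 the GAS core overlaps an ISRE core. The sequences are those of RefSeq on GRCm38.p6, written 5′ to 3′ along the gene's strand.
Isg15, chr4:156200819-156201068, minus strand: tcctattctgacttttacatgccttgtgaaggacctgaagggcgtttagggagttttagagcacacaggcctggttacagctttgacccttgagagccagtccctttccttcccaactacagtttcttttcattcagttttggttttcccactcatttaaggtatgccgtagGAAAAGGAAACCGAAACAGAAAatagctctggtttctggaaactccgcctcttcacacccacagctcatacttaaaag
Ifit1, chr19:34640639-34640888, plus strand: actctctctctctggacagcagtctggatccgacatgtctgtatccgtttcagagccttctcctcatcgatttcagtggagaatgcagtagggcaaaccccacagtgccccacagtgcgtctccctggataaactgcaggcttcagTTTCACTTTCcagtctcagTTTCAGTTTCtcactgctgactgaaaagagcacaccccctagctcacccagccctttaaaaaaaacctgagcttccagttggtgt
B2m, chr2:122147437-122147686, plus strand: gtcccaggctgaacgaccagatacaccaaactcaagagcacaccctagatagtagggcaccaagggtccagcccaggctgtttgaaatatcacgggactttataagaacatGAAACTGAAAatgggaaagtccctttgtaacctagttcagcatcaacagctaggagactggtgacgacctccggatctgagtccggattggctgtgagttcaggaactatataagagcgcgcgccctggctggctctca
Bst2, chr8:71537473-71537722, minus strand: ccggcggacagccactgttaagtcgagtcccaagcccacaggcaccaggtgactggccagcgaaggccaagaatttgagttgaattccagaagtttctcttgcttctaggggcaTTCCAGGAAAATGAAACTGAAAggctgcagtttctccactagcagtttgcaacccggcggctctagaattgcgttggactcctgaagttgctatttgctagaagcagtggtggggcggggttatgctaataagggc
Ifitm2, chr7:140955962-140956211, minus strand: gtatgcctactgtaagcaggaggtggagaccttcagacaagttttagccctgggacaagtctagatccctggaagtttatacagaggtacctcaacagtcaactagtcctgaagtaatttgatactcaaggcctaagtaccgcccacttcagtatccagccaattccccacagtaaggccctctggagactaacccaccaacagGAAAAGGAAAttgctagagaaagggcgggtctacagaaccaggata
Irf1, chr11:53769764-53770013, plus strand: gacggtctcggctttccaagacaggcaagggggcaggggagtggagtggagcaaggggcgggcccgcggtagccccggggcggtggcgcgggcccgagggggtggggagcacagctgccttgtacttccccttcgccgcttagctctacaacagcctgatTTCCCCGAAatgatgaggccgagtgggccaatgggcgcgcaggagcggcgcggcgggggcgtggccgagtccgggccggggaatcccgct

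Isg15 held 3 overlapping ISRE cores between 78 and 57 bases before its start, and Ifit1 held 2, the nearer one 76 bases before the start. Of the 37 members, 28 matched a promoter in the RefSeq table. Usp18, Zbp1, Mx1, Mx2, Ifi27, Ly6a, Tmem173, Oas2 and Dhx58 did not match. An ISRE core lay in the 250 bases of 9 of the 28 (32.1%), namely B2m, Bst2, Ifit1, Ifit3, Ifitm2, Isg15, Oas1a, Rsad2 and Stat2, against 3.46% of all 27025 genes in the table. A GAS core lay in 4 of the 28 (14.3%), namely Bst2, Ifit2, Irf1 and Oas1a, against 8.13% of all genes.

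Each library summed to 1000000 TPM and listed no spike-in RNA, so the values are shares of a library's RNA. The study reports, from RNA-seq scaled to spike-in RNA, that global transcription decreased under mTORi in wild-type and Dnmt3a/b knockout cells. A higher share can therefore go with an unchanged or lower amount of RNA per cell. TPM keeps no read depth, and the depth of each library is unknown. Dnmt3a ranged from 54.7 to 144 TPM in the 6 KH libraries and from 7.35 to 21.9 TPM in the 6 DNMT3ABKO libraries, and Dnmt3b from 142 to 258 and from 12.7 to 27.5 TPM, so neither gene overlapped between the lines. Replicates correlated with r of 0.9935 to 0.9957 across genes, except DNMT3ABKO at 0 h (0.985), where the residual SD on the log2 scale was 0.27 against 0.13 to 0.18 in the other groups. All 10 ES cell markers had at least 1 TPM in every library, and their sum was at 147% to 156% of the 0 h mean after treatment. Of 3 marker lists for other cells, the sums of 2 were lower after treatment. The summed level of 24 fibroblast markers, genes that feeders would express if they were fibroblasts, was 1767 to 2094 TPM at 0 h in the 4 libraries. It stood at 29.7% and 30.5% of the 0 h mean at 72 h and at 6.43% and 6.61% at 144 h in KH cells, and at 20.7% and 23.1% and then 5.66% and 5.97% in DNMT3ABKO cells. The sum of 15 macrophage and leukocyte markers was 314 to 400 TPM at 0 h, and it was at 72.5% and 74.5% of the 0 h mean in KH cells and at 56.2% and 57.1% in DNMT3ABKO cells at 72 h. By 144 h the KH libraries were at 10.7% and 11.04% and the DNMT3ABKO libraries at 18.1% and 18.9%, with C1qb, a complement gene of macrophages, at 0 in both KH libraries. The sum of 7 endothelial markers was 26.7 to 33.0 TPM at 0 h and stood at 105% to 137% of the 0 h mean in the 8 treated libraries. Only 3 of these 7 genes had at least 1 TPM in each 0 h library, and whether endothelial cells were present was not tested. In such bulk samples, fewer cells of a type and less RNA per cell cannot be told apart.

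The means of the 37 members ranged from 0.0552 to 369 TPM. Ifitm2, Ifitm3 and Ifitm1, membrane proteins that block virus entry, led with means of 369, 250 and 153 TPM over the 12 libraries and made up between 61.6% and 77.5% of the members' summed TPM. In all, 13 members had a mean of at least 10 TPM, 14 lay between 1 and 10 TPM and 10 lay below 1 TPM. The median over the members was 2.00 TPM, with medians of 24.9 TPM for the 5 genes of antigen presentation, 11.7 TPM for the transcription factors, 1.42 TPM for the sensors and adaptors and 1.397 TPM for the effectors. The interferon genes themselves were nearly silent: of 132 values for 11 ligands of types I, II and III, 117 were 0, and the highest was 0.267 TPM.

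**Figure D1:**
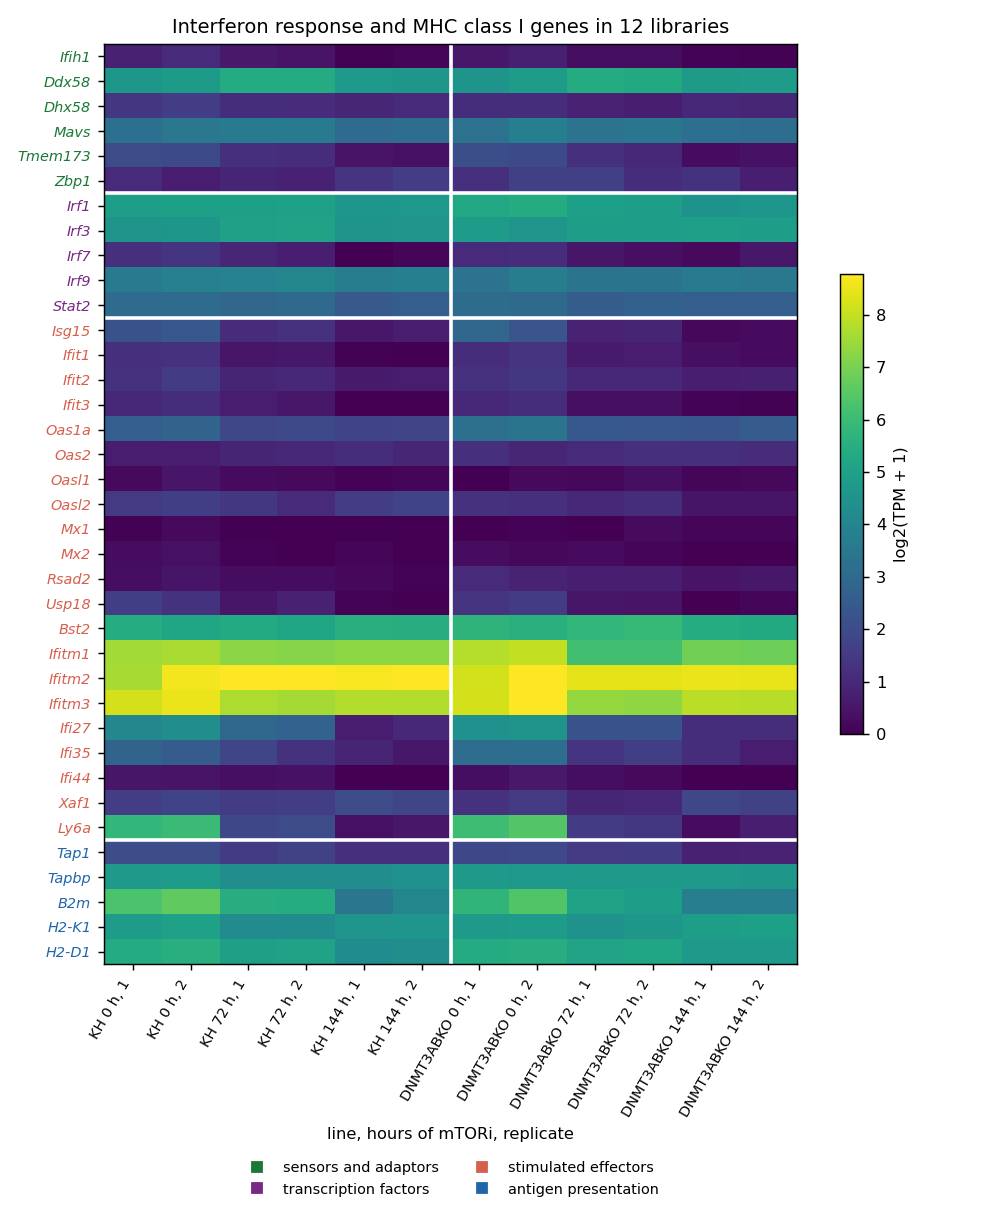
Heat map of log2(TPM + 1) for the 37 members (rows, coloured by role) in the 12 libraries (columns, by line, hours of mTORi and replicate). Ifitm1, Ifitm2 and Ifitm3 are the brightest rows in all libraries, whereas Ly6a and Ifi27 are bright at 0 h and dark at 144 h in both lines.

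To determine the response of these genes to mTORi, each time point was compared with 0 h within each line. A gene was called where its p from limma, adjusted over all genes tested (Benjamini-Hochberg), was below 0.05. The fits were made on log2(TPM + 1), a scale that understates the changes of low genes. Genes near the filter of 1 TPM could pass it through their 0 h libraries, which favours falls in the counts below. Among the members, Isg15, Tmem173, Ifit2 and Dhx58 had means below 1 TPM at 144 h in both lines. The shares of all genes were taken after the same filter. In KH cells at 72 h, 15 of the 27 tested members were lower and 2 were higher, while 47.8% of all genes were called, 19.5% lower and 28.3% higher. At 144 h in KH cells 17 members were lower and 1 was higher (51.3% of all genes were called, 23.9% lower and 27.4% higher). In DNMT3ABKO cells 16 members were lower and 2 were higher at 72 h (56% of all genes called, 21.6% lower and 34.3% higher) and 16 were lower and 2 were higher at 144 h (57.6% called, 26.2% lower and 31.4% higher). The members' median log2 fold change in KH cells was -0.40 at 72 h and -0.39 at 144 h, beside medians of 0.08 and 0.05 over all genes tested. In DNMT3ABKO cells it was -0.37 at 72 h and -0.57 at 144 h, beside 0.12 and 0.05. The fall of the members came together with that of the fibroblast markers. Of these, 22 of 22 tested were lower in each of the 4 comparisons. Among the 15 macrophage markers, 8 were lower and 3 higher in KH cells at 72 h, and 15 were lower at 144 h. DNMT3ABKO cells had 10 lower and 1 higher at 72 h, and 14 lower at 144 h. The part of these markers in the result was not tested.

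At 144 h, 14 members were lower in both lines, namely B2m, H2-D1, Ifi27, Ifi35, Ifit2, Ifitm1, Ifitm3, Irf1, Isg15, Ly6a, Oas1a, Stat2, Tap1 and Tmem173, and 12 of them were also lower in both lines at 72 h. No member was called in opposite directions in the lines at 144 h. At that time 23.9% of all genes were lower in KH and 26.2% in DNMT3ABKO cells. The shares of all genes with these joint patterns were not counted. The level that remained separated the members. Among those with a mean of at least 0.5 TPM at 0 h, 11 of 32 in KH cells and 10 of 33 in DNMT3ABKO cells were below 20% of their 0 h mean at 144 h, and 11 and 9 were above 80%. A cut on the 0 h mean alone favours falls, and the shares of all genes at these levels were not counted. Of the fibroblast markers, 20 of 24 in KH cells and 23 of 24 in DNMT3ABKO cells were below 20%, and none was above 80%. Of the 15 macrophage markers, 13 and 12 were below 20%.

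**Figure D2:**
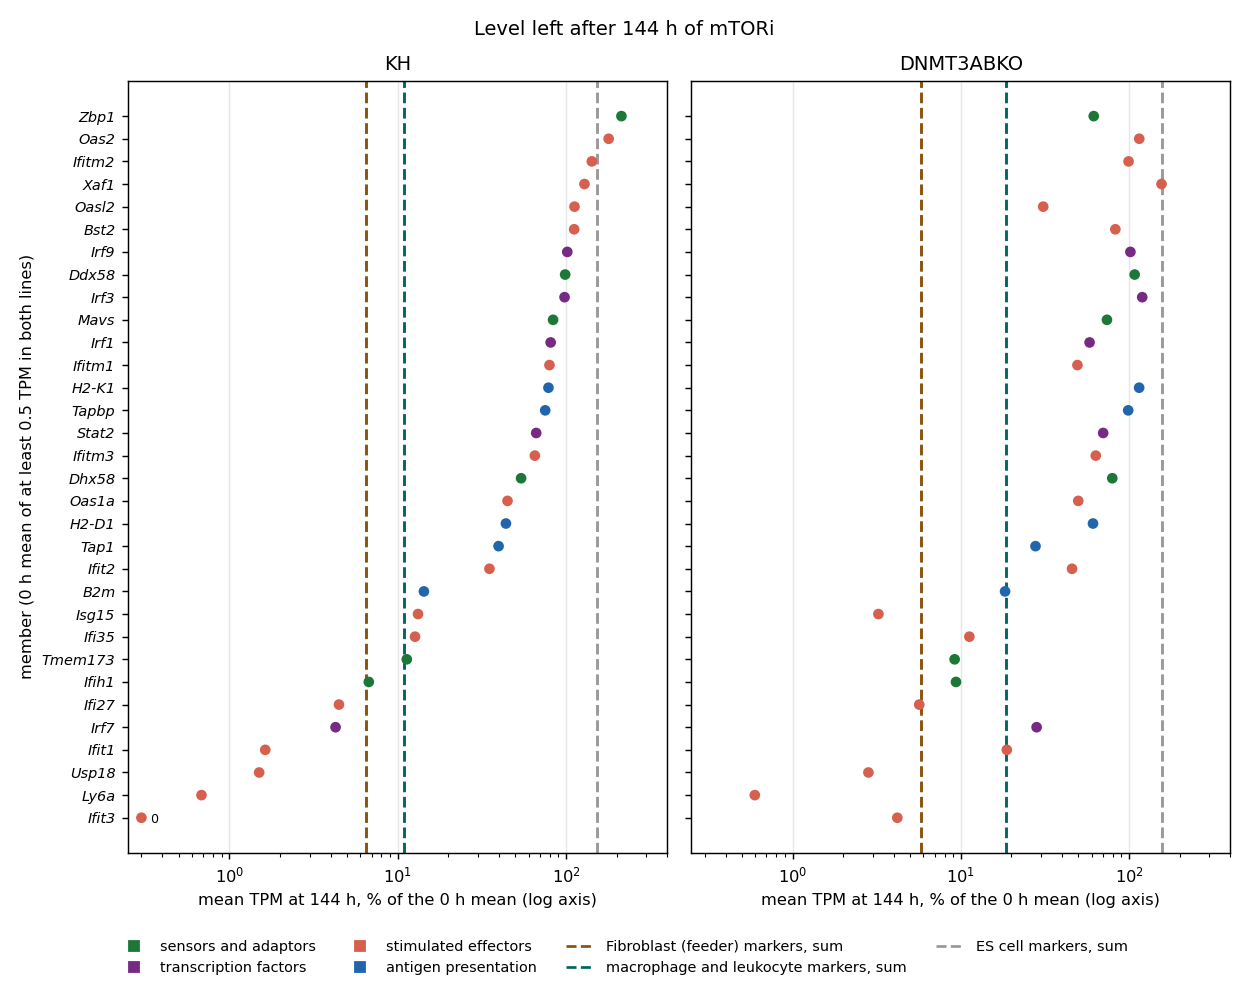
Mean TPM at 144 h as a percentage of the 0 h mean (log axis) for members with at least 0.5 TPM at 0 h in both lines (points, coloured by role), in KH (left) and DNMT3ABKO cells (right), with Ifit3 drawn at the edge because it is at 0 in KH. Dashed lines give the summed fibroblast, macrophage and ES cell markers, and Ly6a and Usp18 lie to the left of the fibroblast sum in both lines, while the MHC class I gene H2-K1 is at 78.6% and 115%.

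Among the sensors, Ddx58 (ENSMUSG00000040296.15, chromosome 4, 40203773 to 40239828) encodes RIG-I, which detects viral RNA in the cytosol. It stood at 24.2 and 26.3 TPM at 0 h, 40.8 and 41.5 TPM at 72 h and 26.0 and 24.0 TPM at 144 h in KH cells. DNMT3ABKO cells had 22.02 and 27.6 TPM at 0 h, 40.9 and 38.8 TPM at 72 h and 26.5 and 27.1 TPM at 144 h. Its share of the RNA thus rose and came back in both lines. The log2 fold change at 72 h was 0.68 (SE 0.10, adjusted p = 0.000423) in KH cells and 0.67 (SE 0.10, adjusted p = 0.000327) in DNMT3ABKO cells. At 144 h it was -0.02 and 0.11, neither called. Leaving out DNMT3ABKO replicate 2 at 0 h, the higher of a pair that spread from 22.02 to 27.6 TPM, moved the value at 144 h to 0.27, which was called.

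Tmem173, the adaptor STING of the cytosolic DNA pathway, fell in both lines. KH cells had 3.01 and 2.95 TPM at 0 h, 1.25 and 1.21 TPM at 72 h and 0.369 and 0.305 TPM at 144 h. DNMT3ABKO cells had 3.29 and 2.88 TPM at 0 h, 1.28 and 1.03 TPM at 72 h and 0.227 and 0.340 TPM at 144 h. The 3 time points did not overlap in either line, and the change at 144 h was -1.57 (SE 0.11, adjusted p = 2.63e-06) in KH and -1.67 (SE 0.11, adjusted p = 9.76e-07) in DNMT3ABKO cells, or 11.3% and 9.19% of the 0 h level, beside 6.43% to 6.61% and 5.66% to 5.97% for the summed fibroblast markers. The summed macrophage markers stood at 10.7% to 11.04% and 18.1% to 18.9% at 144 h. Single fibroblast markers ranged from 1.79% to 39.4% in KH and from 1.78% to 24.0% in DNMT3ABKO cells at 144 h. Single macrophage markers ranged from 0% to 63.7% and from 2.38% to 95.9%. The part of either marker list was not tested.

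Dhx58 (LGP2, a regulator of RIG-I and MDA5) was near the filter, at 1.63 and 2.01 TPM at 0 h, 1.19 and 1.19 TPM at 72 h and 0.918 and 1.05 TPM at 144 h in KH cells. Its DNMT3ABKO libraries had 1.21 and 1.21 TPM at 0 h, 0.783 and 0.649 TPM at 72 h and 0.996 and 0.931 TPM at 144 h. Every treated library was below both 0 h libraries of its line. The log2 fold change was -0.36 at 72 h and -0.50 at 144 h in KH cells and -0.37 at 72 h in DNMT3ABKO cells, all called, and -0.17 at 144 h in DNMT3ABKO cells, which was not. The call at 72 h in KH cells was lost without KH replicate 2 at 0 h (-0.27) or without KH replicate 1 or 2 at 72 h (-0.36 and -0.36), and that in DNMT3ABKO cells without replicate 1 at 0 h (-0.37) or replicate 2 at 72 h (-0.31).

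Mavs, the mitochondrial adaptor that relays RIG-I and MDA5 signals, was at 8.16 and 10.2 TPM at 0 h, 11.4 and 11.2 TPM at 72 h and 7.46 and 7.96 TPM at 144 h in KH cells. The DNMT3ABKO values were 8.86 and 12.8 TPM at 0 h, 9.19 and 9.89 TPM at 72 h and 8.14 and 7.87 TPM at 144 h. Its 0 h libraries spread more than those at other times, and neither time point was called against 0 h in either line, although without DNMT3ABKO replicate 1 at 0 h the changes in DNMT3ABKO cells became -0.39 and -0.62 and were called. Without DNMT3ABKO replicate 1 or 2 at 0 h the change in KH cells at 72 h was called higher, at its unchanged size of 0.28. The change in DNMT3ABKO cells at 144 h was called without KH replicate 1 or 2 at 0 h, at its unchanged size of -0.37, and with the replicate number as a block (adjusted p = 0.0485). It was called between 72 and 144 h in KH cells, at -0.50 (SE 0.15, adjusted p = 0.0383), and lost that call without any 1 of the 8 treated libraries (-0.54 to -0.46). Zbp1, a sensor of left-handed nucleic acid that triggers cell death, was at 1.05 and 0.627 TPM at 0 h, 0.875 and 0.729 TPM at 72 h and 1.54 and 2.05 TPM at 144 h in KH cells. DNMT3ABKO cells had 1.32 and 2.15 TPM at 0 h, 2.16 and 1.19 TPM at 72 h and 1.46 and 0.684 TPM at 144 h. Its KH libraries at 144 h lay above the earlier ones, but the change of 0.61 (SE 0.24, adjusted p = 0.0581) was not called, and it passed the threshold, at the same size, without any 1 of the 6 DNMT3ABKO libraries. Ifih1, which encodes the RNA sensor MDA5, was below the filter with 0.0384 to 1.06 TPM.

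Of the transcription factors, Irf3 (ENSMUSG00000003184.15, chromosome 7, 44997648 to 45002848), the factor that the sensors activate first, stood at 22.3 and 24.2 TPM at 0 h, 31.3 and 32.0 TPM at 72 h and 22.5 and 23.1 TPM at 144 h in KH cells. The libraries of DNMT3ABKO cells held 26.8 and 22.7 TPM at 0 h, 29.3 and 29.3 TPM at 72 h and 30.1 and 29.2 TPM at 144 h. The KH libraries at 72 h were above all KH libraries of the other times, with a log2 fold change of 0.43 (SE 0.08, adjusted p = 0.00232) from 0 to 72 h and of -0.46 from 72 to 144 h. In DNMT3ABKO cells the changes of 0.24 and 0.25 at 72 and 144 h were called, but under a rescaling of each library by its median ratio both lost the call, as the first did without any 1 of 9 libraries (0.12 to 0.24) and the second without any 1 of 3 (0.14 to 0.28).

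Irf1 (ENSMUSG00000018899.16, chromosome 11, 53770014 to 53778374), a factor induced by interferon gamma that drives MHC class I genes, was at 28.3 and 30.8 TPM at 0 h, 30.4 and 31.6 TPM at 72 h and 23.5 and 24.3 TPM at 144 h in KH cells. DNMT3ABKO cells started higher and ended just below KH, at 36.6 and 40.9 TPM at 0 h, 29.9 and 28.4 TPM at 72 h and 21.6 and 23.5 TPM at 144 h. The change was -0.40 (SE 0.08, adjusted p = 0.00218) and -0.75 (SE 0.08, adjusted p = 2.85e-05) at 72 and 144 h in DNMT3ABKO cells. In KH cells the value at 72 h was 0.07, not called, and at 144 h -0.29 (SE 0.08, adjusted p = 0.0129), a call lost without KH replicate 2 at 0 h (-0.23) or replicate 1 at 144 h (-0.27).

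Stat2, a factor that type I interferon activates and that acts with IRF9, was at 7.29 and 7.37 TPM at 0 h, 6.47 and 6.94 TPM at 72 h and 4.51 and 5.24 TPM at 144 h in KH cells. Its DNMT3ABKO libraries had 7.64 and 7.11 TPM at 0 h, 5.08 and 5.59 TPM at 72 h and 5.11 and 5.23 TPM at 144 h. Its fall was called at 144 h in both lines, at -0.51 (SE 0.10, adjusted p = 0.00154) and -0.44 (SE 0.10, adjusted p = 0.00289), and at 72 h in DNMT3ABKO cells, at -0.40. Irf9, its DNA-binding partner, was at 11.3 and 13.3 TPM at 0 h, 13.9 and 15.3 TPM at 72 h and 12.3 and 12.8 TPM at 144 h in KH cells. The DNMT3ABKO values were 9.18 and 12.3 TPM at 0 h, 9.35 and 9.48 TPM at 72 h and 11.3 and 10.5 TPM at 144 h, and no time point was called against 0 h. Irf7, which amplifies interferon production, was below the filter, at 0.0128 to 1.51 TPM.

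Ly6a (ENSMUSG00000075602.10, chromosome 15, 74994877 to 74998031) changed most of the 27 members. It encodes Sca-1, a surface protein induced by interferon and found on fibroblasts and blood stem cells. KH cells had 55.4 and 61.5 TPM at 0 h, 2.77 and 3.14 TPM at 72 h and 0.314 and 0.484 TPM at 144 h. DNMT3ABKO cells had 65.4 and 84.3 TPM at 0 h, 1.92 and 1.70 TPM at 72 h and 0.220 and 0.673 TPM at 144 h. The groups were far apart, with log2 fold changes of -5.41 (SE 0.17, adjusted p = 1.14e-08) and -5.72 (SE 0.17, adjusted p = 5.91e-09) at 144 h, and 0.682% and 0.597% of the 0 h level left. At 72 h the remainder was 5.06% and 2.42%, less than the 29.7% to 30.5% and 20.7% to 23.1% of the summed fibroblast markers. It was also less than the 72.5% to 74.5% and 56.2% to 57.1% of the summed macrophage markers. Single fibroblast markers went down to 6.05% in KH and 5.30% in DNMT3ABKO cells at 72 h.

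Ifi27 (ENSMUSG00000064215.13, chromosome 12, 103434211 to 103440239), a mitochondrial protein strongly induced by type I interferon, fell at each step in both lines. Its KH values were 15.9 and 19.1 TPM at 0 h, 6.75 and 5.74 TPM at 72 h and 0.616 and 0.951 TPM at 144 h. Its DNMT3ABKO values were 20.7 and 22.2 TPM at 0 h, 3.66 and 3.59 TPM at 72 h and 1.21 and 1.21 TPM at 144 h. All 3 times were apart in both lines, and at 144 h 4.48% and 5.66% was left, with log2 fold changes of -3.38 (SE 0.13, adjusted p = 3.31e-08) and -3.34 (SE 0.13, adjusted p = 1.81e-08).

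Isg15 (ENSMUSG00000035692.6, chromosome 4, 156199424 to 156200818), a ubiquitin-like protein that is attached to other proteins during infection, was at 3.66 and 4.22 TPM at 0 h, 1.17 and 1.38 TPM at 72 h and 0.465 and 0.576 TPM at 144 h in KH cells. Its DNMT3ABKO values were 6.50 and 3.97 TPM at 0 h, 0.800 and 0.876 TPM at 72 h and 0.149 and 0.190 TPM at 144 h. Its 0 h libraries spread widely in DNMT3ABKO cells, but all treated libraries lay well below. The change was -1.70 (SE 0.17, adjusted p = 2.94e-05) in KH and -2.38 (SE 0.17, adjusted p = 1.68e-06) in DNMT3ABKO cells at 144 h. Ifi35, a partner of signalling proteins in the interferon response, had 5.88 and 4.82 TPM at 0 h, 2.55 and 1.44 TPM at 72 h and 0.874 and 0.481 TPM at 144 h in KH cells. DNMT3ABKO cells had 7.80 and 8.0002 TPM at 0 h, 1.54 and 2.11 TPM at 72 h and 1.20 and 0.572 TPM at 144 h. Its replicates at 144 h lay far apart for their level, and no treated library reached a 0 h level, with changes of -1.92 (SE 0.22, adjusted p = 6.15e-05) and -2.26 (SE 0.22, adjusted p = 1.35e-05).

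Oas1a, a synthetase that activates RNase L against viral RNA, was at 5.19 and 5.92 TPM at 0 h, 2.65 and 2.85 TPM at 72 h and 2.40 and 2.59 TPM at 144 h in KH cells. The DNMT3ABKO libraries held 8.49 and 9.399 TPM at 0 h, 4.34 and 4.27 TPM at 72 h and 4.09 and 4.83 TPM at 144 h. It was lower at both times, and the step from 72 to 144 h was not called in either line. In KH cells 49.6% of the 0 h level was left at 72 h and 44.9% at 144 h, and in the knockout line 48.2% and 49.9%, with the 4 log2 fold changes between -0.91 and -0.80, all called. Reads of Oas1a can be shared with its near copies, Oas1g among them.

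Ifit2, a protein that restrains translation of viral RNA, was at 1.404 and 1.91 TPM at 0 h, 0.887 and 0.973 TPM at 72 h and 0.555 and 0.606 TPM at 144 h in KH cells. The libraries of DNMT3ABKO cells held 1.35 and 1.65 TPM at 0 h, 0.946 and 0.982 TPM at 72 h and 0.671 and 0.704 TPM at 144 h. The change at 144 h was -0.74 (SE 0.12, adjusted p = 0.000655) and -0.57 (SE 0.12, adjusted p = 0.0028). At 72 h it was -0.45 and -0.35, calls that were lost in KH cells without KH replicate 2 at 0 h (-0.32) or replicate 1 at 72 h (-0.42) and in DNMT3ABKO cells without any 1 of 5 libraries (-0.36 to -0.26).

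Of the Ifitm cluster, Ifitm1 and Ifitm3 were also lower in both lines at 72 and 144 h, whereas Ifitm2 was not called. Ifitm1 (ENSMUSG00000025491.14, chromosome 7, 140967221 to 140969825) stood at 189 and 199.7 TPM at 0 h, 152 and 142 TPM at 72 h and 154 and 156 TPM at 144 h in KH cells. The knockout line had 223 and 248 TPM at 0 h, 69.0 and 68.4 TPM at 72 h and 119.8 and 112 TPM at 144 h, so that a deep trough at 72 h was partly refilled by 144 h. The DNMT3ABKO libraries at 72 h were the lowest of all 12. The log2 fold change was -0.40 (SE 0.07, adjusted p = 0.00115) and -0.32 (SE 0.07, adjusted p = 0.00327) in KH cells and -1.76 (SE 0.07, adjusted p = 9.16e-08) and -1.01 (SE 0.07, adjusted p = 1.16e-06) in DNMT3ABKO cells, and the rise from 72 to 144 h in DNMT3ABKO cells was 0.75 (SE 0.07, adjusted p = 3.7e-05).

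Ifitm3 (ENSMUSG00000025492.6, chromosome 7, 141009586 to 141010770) had 298 and 363 TPM at 0 h, 207 and 189.7 TPM at 72 h and 217 and 214 TPM at 144 h in KH cells. DNMT3ABKO cells had 294 and 431 TPM at 0 h, 164 and 158 TPM at 72 h and 234 and 225 TPM at 144 h. Both lines were lower at 72 h, with log2 fold changes of -0.73 and -1.14, and at 144 h, with -0.61 and -0.63, all called. The call in KH cells at 144 h was lost without KH replicate 2 at 0 h (-0.46).

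Ifitm2 (ENSMUSG00000060591.9, chromosome 7, 140954837 to 140955987) had 196 and 395 TPM at 0 h, 435 and 428 TPM at 72 h and 412 and 429 TPM at 144 h in KH cells. Its DNMT3ABKO values were 287 and 437 TPM at 0 h, 342 and 343 TPM at 72 h and 366 and 353 TPM at 144 h. KH replicate 1 at 0 h was the lowest of the 12 libraries, far below replicate 2, and no contrast was called. Without KH replicate 2 at 0 h, the changes in KH cells became 1.13 at 72 h and 1.10 at 144 h, where they had been 0.63 and 0.59, and were called. Without DNMT3ABKO replicate 1 or 2 at 0 h the first was called too, at its unchanged size of 0.63. The 3 genes are near copies whose reads can be shared, and their split is uncertain to that extent. Bst2, tetherin, which holds budding viruses at the cell surface, was at 42.4 and 35.9 TPM at 0 h, 39.9 and 35.8 TPM at 72 h and 44.7 and 42.9 TPM at 144 h in KH cells. Its DNMT3ABKO libraries had 51.5 and 46.1 TPM at 0 h, 55.0 and 57.7 TPM at 72 h and 42.0 and 38.8 TPM at 144 h. The KH libraries lay between 35.8 and 44.7 TPM and no time was called. In DNMT3ABKO cells the change at 144 h was -0.27 (SE 0.10, adjusted p = 0.0373), a call lost without any 1 of 7 libraries (-0.32 to -0.19).

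**Figure D3:**
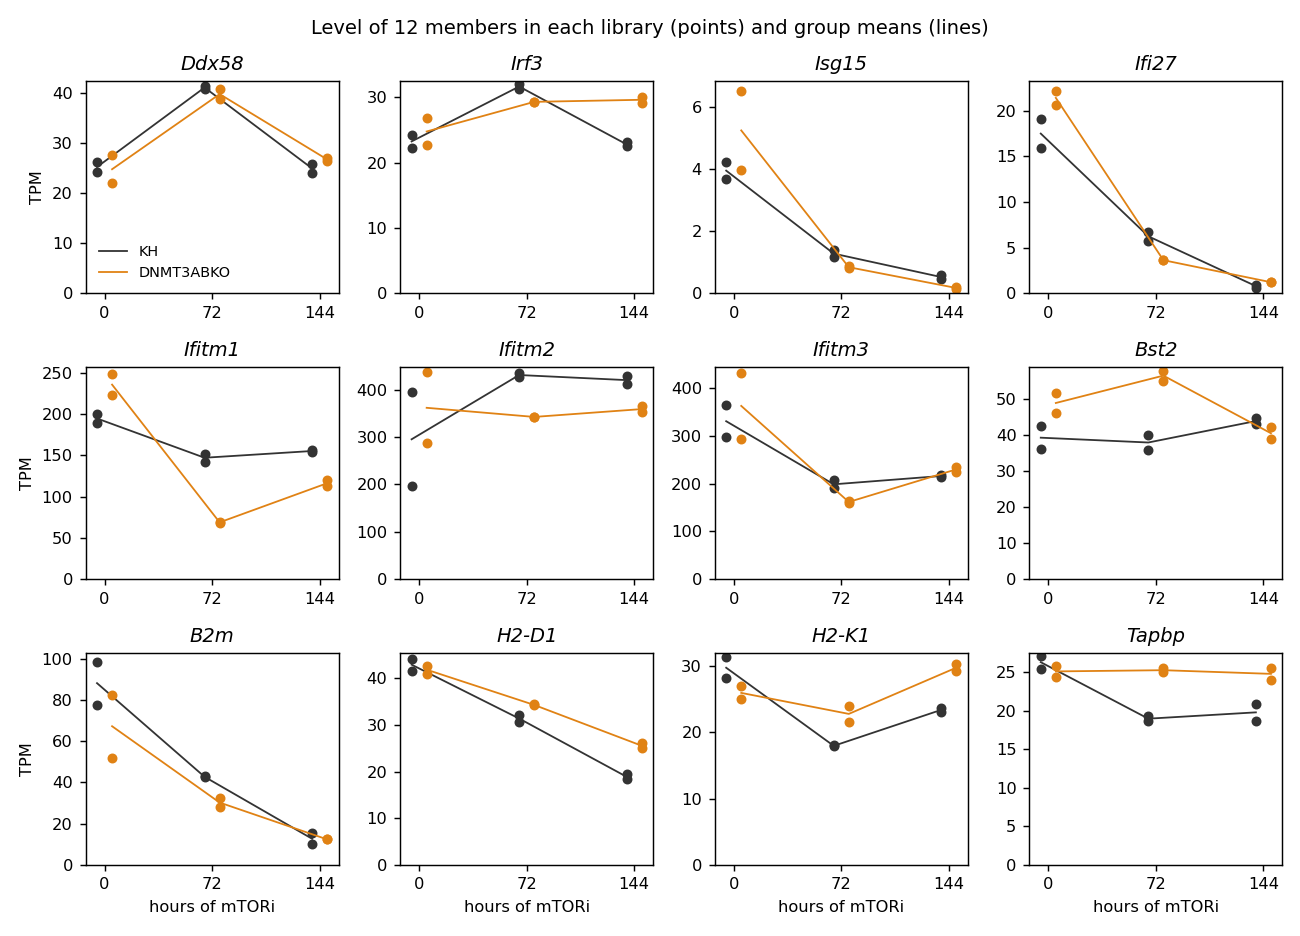
TPM of 12 members at 0, 72 and 144 h of mTORi in KH (dark) and DNMT3ABKO cells (orange); points are the 2 libraries of a group and lines join the group means. Ddx58 peaks at 72 h in both lines, Isg15, Ifi27 and B2m decline at each step, Ifitm1 drops to 68.4 and 69.0 TPM at 72 h in DNMT3ABKO cells, and Tapbp and H2-K1 are higher in DNMT3ABKO than in KH cells after treatment.

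A few low effectors did not fall in both lines. Oasl2, another member of the Oas family, was at 1.84 and 2.11 TPM at 0 h, 1.65 and 1.13 TPM at 72 h and 2.02 and 2.41 TPM at 144 h in KH cells. The DNMT3ABKO libraries held 1.402 and 1.25 TPM at 0 h, 0.952 and 1.19 TPM at 72 h and 0.417 and 0.402 TPM at 144 h, and the 144 h libraries were the lowest of the 12. The change at 144 h was -0.72 (SE 0.13, adjusted p = 0.00114) in DNMT3ABKO cells and 0.11 in KH cells, where it was not called. Xaf1, a protein that promotes cell death, was at 2.02 and 2.36 TPM at 0 h, 1.85 and 2.04 TPM at 72 h and 3.08 and 2.57 TPM at 144 h in KH cells. The DNMT3ABKO values were 1.403 and 1.81 TPM at 0 h, 0.875 and 0.972 TPM at 72 h and 2.66 and 2.33 TPM at 144 h. In DNMT3ABKO cells it went down by 72 h (-0.43, SE 0.12, adjusted p = 0.014) and up again, by 0.86 (SE 0.12, adjusted p = 0.000658) from 72 to 144 h, and ended above its 0 h libraries at 0.43, which was called. The first call was lost without DNMT3ABKO replicate 2 at 0 h or replicate 1 at 72 h (-0.40 to -0.32) and the last without replicate 1 at 0 h or replicate 1 at 144 h (0.32 to 0.36). Oas2, a larger synthetase of the same family, was at 0.571 and 0.629 TPM at 0 h, 0.898 and 1.01 TPM at 72 h and 1.22 and 0.933 TPM at 144 h in KH cells. DNMT3ABKO cells had 1.27 and 0.923 TPM at 0 h, 1.04 and 1.33 TPM at 72 h and 1.34 and 1.18 TPM at 144 h. Its KH level at 144 h was called higher, at 0.37 (SE 0.13, adjusted p = 0.0357), and the call was lost without any 1 of 5 libraries (0.27 to 0.40), without the filter, under median-ratio scaling and with the replicate number as a block.

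The 10 members below the filter, Ifih1, Irf7, Ifit1, Ifit3, Oasl1, Mx1, Mx2, Rsad2, Usp18 and Ifi44, ranged from 0 to 2.09 TPM, with 17 of 120 values at 0. They could be tested without the filter, over 37364 genes. At 144 h 7 of the 10 were then lower in KH cells, where 11.9% of all genes were lower, and 8 in DNMT3ABKO cells, where 13.2% were. Usp18, which removes ISG15 from proteins and damps the receptor, went from 2.09 and 1.46 TPM to 0.0534 and 0 TPM in KH cells and from 1.52 and 1.92 to 0 and 0.0973 TPM in DNMT3ABKO cells. Ifit1 and Ifit3, which hold ISRE cores, stood at 0.0272 and 0.0161 TPM and at 0 in both libraries in KH cells at 144 h, and at 0.297 and 0.202 and 0.0632 and 0.0297 TPM in DNMT3ABKO cells. Rsad2, viperin, an inhibitor of virus replication, differed between lines. KH cells had 0.244 and 0.412 TPM at 0 h, 0.213 and 0.216 TPM at 72 h and 0.127 and 0.0694 TPM at 144 h. DNMT3ABKO cells had 1.05 and 0.820 TPM at 0 h, 0.683 and 0.662 TPM at 72 h and 0.365 and 0.482 TPM at 144 h, and all libraries of a time lay above those of KH. The difference between lines was 0.54, 0.46 and 0.37 on the log2 scale at 0, 72 and 144 h, called at each time without the filter (adjusted p = 0.0148, 0.0145 and 0.0238).

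Of the 5 genes of antigen presentation, 4 had a mean of at least 10 TPM and Tap1 had 1.99 TPM. B2m (ENSMUSG00000060802.8, chromosome 2, 122147686 to 122153083), the light chain that every class I molecule needs, had 77.8 and 98.7 TPM at 0 h, 42.9 and 42.6 TPM at 72 h and 9.94 and 15.3 TPM at 144 h in KH cells. The knockout line had 52.1 and 82.6 TPM at 0 h, 32.3 and 28.2 TPM at 72 h and 12.3 and 12.3 TPM at 144 h. Each step lay below the one before, in both lines. The log2 fold change was -1.02 (SE 0.22, adjusted p = 0.00416) and -2.73 (SE 0.22, adjusted p = 6.46e-06) in KH cells and -1.10 (SE 0.22, adjusted p = 0.00216) and -2.32 (SE 0.22, adjusted p = 1.24e-05) in DNMT3ABKO cells, which left 14.3% and 18.3% of the 0 h level at 144 h. At that time the summed macrophage markers stood at 10.7% to 11.04% and 18.1% to 18.9%. The summed fibroblast markers stood at 6.43% to 6.61% and 5.66% to 5.97%, and single ones ranged from 1.79% to 39.4% and from 1.78% to 24.0%. At 72 h B2m was at 48.4% in KH and 44.9% in DNMT3ABKO cells. The macrophage sum was then at 72.5% to 74.5% and 56.2% to 57.1%, and the fibroblast sum at 29.7% to 30.5% and 20.7% to 23.1%. Single fibroblast markers then ranged from 6.05% to 59.5% and from 5.30% to 46.1%. The part of either marker list in the result was not tested.

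The heavy chains changed less. H2-D1 (ENSMUSG00000073411.11, chromosome 17, 35262730 to 35267499) was at 41.6 and 44.2 TPM at 0 h, 30.7 and 32.1 TPM at 72 h and 18.4 and 19.4 TPM at 144 h in KH cells. DNMT3ABKO cells had 41.0 and 42.7 TPM at 0 h, 34.2 and 34.4 TPM at 72 h and 26.1 and 25.003 TPM at 144 h. It stepped down at each time in both lines, to -1.14 (SE 0.07, adjusted p = 7.01e-07) and -0.69 (SE 0.07, adjusted p = 1.4e-05) at 144 h. H2-K1 (ENSMUSG00000061232.15, chromosome 17, 33996017 to 34000333) was at 28.1 and 31.4 TPM at 0 h, 17.9 and 18.0 TPM at 72 h and 23.1 and 23.7 TPM at 144 h in KH cells. Its DNMT3ABKO values were 24.9 and 26.9 TPM at 0 h, 21.6 and 24.0 TPM at 72 h and 29.3 and 30.2 TPM at 144 h. In KH cells the 72 h libraries were the lowest, with -0.70 (SE 0.08, adjusted p = 0.000107) at 72 h and -0.33 at 144 h, the second call being lost without KH replicate 2 at 0 h (-0.26). In DNMT3ABKO cells the changes of -0.18 and 0.19 were not called, although without DNMT3ABKO replicate 1 at 0 h the first became -0.23, and without replicate 2 at 0 h the second became 0.24, both called. H2-K1 was the 1 member called higher at 144 than at 72 h in both lines, by 0.36 and 0.37. These calls were lost without any 1 of 4 KH libraries (0.35 to 0.38) and of 2 DNMT3ABKO libraries (0.30 to 0.35). H2-K1 and H2-D1 share long stretches with each other and with the H2-Q and H2-T genes, and the authors' counting could split their reads.

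Tap1, a subunit of the transporter that brings peptides to class I molecules, was at 3.21 and 3.16 TPM at 0 h, 1.85 and 2.24 TPM at 72 h and 1.28 and 1.25 TPM at 144 h in KH cells. The libraries of DNMT3ABKO cells held 2.75 and 2.79 TPM at 0 h, 1.83 and 1.94 TPM at 72 h and 0.736 and 0.805 TPM at 144 h. No treated library reached a 0 h level, and the change at 144 h was -0.89 (SE 0.10, adjusted p = 6.67e-05) and -1.09 (SE 0.10, adjusted p = 1.03e-05). At 72 h it was -0.46 and -0.39, and the second call was lost without DNMT3ABKO replicate 1 at 72 h (-0.36). Tapbp (tapasin), which bridges that transporter and the class I molecule, was at 25.4 and 27.1 TPM at 0 h, 19.3 and 18.6 TPM at 72 h and 18.7 and 20.9 TPM at 144 h in KH cells. The DNMT3ABKO libraries held 25.8 and 24.4 TPM at 0 h, 25.5 and 25.001 TPM at 72 h and 25.6 and 24.0 TPM at 144 h. It was lower in KH cells, with changes of -0.45 (SE 0.08, adjusted p = 0.00115) and -0.39 (SE 0.08, adjusted p = 0.00204), and its DNMT3ABKO groups overlapped, with changes of 0.01 and -0.02. Summed over the 5 genes, 37.5% and 42.3% of the 0 h mean was left in KH cells at 144 h, and 56.7% and 57.7% in DNMT3ABKO cells.

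Of the 6 tested members with an ISRE core before their start, 4 were lower in KH cells at 144 h and 5 in DNMT3ABKO cells, where 23.9% and 26.2% of all genes were lower. Of the 15 tested members that matched the promoter table without such a core, 9 and 8 were lower. Bst2 and Ifitm2, whose cores are printed above, stood at 42.9 and 44.7 TPM and at 412 and 429 TPM in KH cells at 144 h, while Isg15 stood at 0.465 and 0.576 TPM.

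To ask whether these genes differed between the lines before treatment, the lines were compared at 0 h. With 1 line of each genotype, a difference between lines cannot be assigned to the loss of Dnmt3a and Dnmt3b. In that comparison 3 of the 27 members were higher in DNMT3ABKO cells and none was lower (9.06% of all genes called, 4.92% higher and 4.14% lower). They were Oas1a at 0.60 (SE 0.11, adjusted p = 0.0066), Irf1 at 0.38 (SE 0.08, adjusted p = 0.0174) and Ifitm1 at 0.27 (SE 0.07, adjusted p = 0.0379). The Oas1a and Irf1 calls were lost without KH replicate 1 at 0 h (0.52 and 0.32), and the Ifitm1 call without any 1 of 10 libraries (0.24 to 0.31). At an unadjusted p under 0.05, 8 members were higher and 4 lower. Without DNMT3ABKO replicate 2 at 0 h, 8 members were called, 6 higher and 2 lower, among them B2m at -0.74 and Isg15 at 0.60. With only these 2 groups in the limma model 0 were called, and 5 had an unadjusted p under 0.05. With the replicate number as a block 1 member, Oas1a, was called, while Irf1 (adjusted p = 0.0700) and Ifitm1 (adjusted p = 0.164) were not. At 0 h 4 of the 22 fibroblast markers were higher in DNMT3ABKO cells and 1 of the 15 macrophage markers was lower, and their part in the result was not tested.

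At 72 h, 4 members were higher in DNMT3ABKO cells and 4 were lower (19.3% of all genes called, 9.26% higher and 10% lower). Bst2 was higher by 0.56 (SE 0.10, adjusted p = 0.00285) and Ifitm1 lower, at -1.09 (SE 0.07, adjusted p = 3.14e-06), and these 2 kept the call in each alternative run other than the minimum fold change, which Bst2 did not reach. The others were Oas1a (0.50), Tapbp (0.40) and H2-K1 (0.33), which were higher, and Ifi27 (-0.64), Xaf1 (-0.61) and Irf9 (-0.58), which were lower. Each of these 6 calls was lost without 1 or more of the libraries at 72 h: Oas1a over 3 libraries (0.46 to 0.51), Tapbp over 2 (0.37 to 0.38), H2-K1 over 3 (0.25 to 0.33), Ifi27 without KH replicate 1 (-0.54), Xaf1 over 2 (-0.58 to -0.57) and Irf9 over 3 (-0.59 to -0.51). The H2-K1 call was also lost with the replicate number as a block (0.31, adjusted p = 0.0709). At this time 14 of the 15 macrophage markers and 2 of the 22 fibroblast markers were also lower in DNMT3ABKO cells, and their part in the result was not tested.

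At 144 h, 5 members were higher in DNMT3ABKO cells and 3 were lower (26.5% of all genes called, 11% higher and 15.5% lower). Oas1a (0.64, SE 0.11, adjusted p = 0.00182) and H2-D1 (0.42, SE 0.07, adjusted p = 0.00151) were higher, and Oasl2 (-1.19, SE 0.13, adjusted p = 0.000153) and Ifitm1 (-0.42, SE 0.07, adjusted p = 0.00192) were lower. These 4 calls held whichever library was left out. Irf3 (0.36), H2-K1 (0.33) and Tapbp (0.31) were also higher and Tap1 (-0.36) lower. Those calls were lost for Irf3 without KH or DNMT3ABKO replicate 1 at 144 h (0.35 and 0.34), for Tapbp without the same libraries (0.24 to 0.27), and for H2-K1 (0.31 to 0.36) and Tap1 (-0.39 to -0.33) without any 1 of the 4 libraries at 144 h. Tap1 also lost it with the replicate number as a block (-0.35, adjusted p = 0.108). Macrophage markers were higher in DNMT3ABKO cells here, 9 of 15, and 2 of 22 fibroblast markers were higher and 1 lower.

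The difference between lines in the response was then tested directly, as an interaction of line and time. For 72 h the difference was called for 5 members, of which 2 had the higher response in DNMT3ABKO cells and 3 the lower, while 5.23% of all genes were called, 3.38% higher and 1.86% lower. For 144 h it was again 2 higher and 3 lower members (8.59% of all genes called, 4.89% higher and 3.7% lower). The response of Ifitm1 was lower in DNMT3ABKO than in KH cells, by a difference of -1.36 (SE 0.10, adjusted p = 0.000294) at 72 h and -0.69 (SE 0.10, adjusted p = 0.0018) at 144 h, and it was the 1 member whose calls held whichever library was left out. Irf1 also had negative differences, -0.47 (SE 0.12, adjusted p = 0.0474) and -0.46 (SE 0.12, adjusted p = 0.0348), as did Ifi27 at 72 h, at -0.92 (SE 0.18, adjusted p = 0.0158), and Oasl2 at 144 h, at -0.83 (SE 0.19, adjusted p = 0.0241). Of the 5 genes of antigen presentation 2 had a called difference at each time, all positive. These were 0.51 (SE 0.12, adjusted p = 0.0311) and 0.52 (SE 0.12, adjusted p = 0.0199) for H2-K1, 0.45 (SE 0.10, adjusted p = 0.0162) for H2-D1 at 144 h and 0.46 (SE 0.11, adjusted p = 0.0431) for Tapbp at 72 h. The smallest values among the 5 genes, neither called, were -0.08 for B2m at 72 h and -0.21 for Tap1 at 144 h.

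With the replicate number as a block 3 differences were called at each time, and those of Irf1 at 72 and 144 h (adjusted p = 0.0809 and 0.0580), Tapbp (0.0796) and Oasl2 (0.0584) were not. Other than those of Ifitm1, the calls lay near the threshold, and several were lost at an unchanged size when a library outside the contrast was left out. They were lost without any 1 of 10 and 9 libraries for Irf1 at 72 and 144 h (-0.53 to -0.41 and -0.52 to -0.40), of 4 for Ifi27 (-0.93 to -0.80), of 4 for Oasl2 (-0.84 to -0.75), of 10 for Tapbp (0.42 to 0.50), of 9 and 5 for H2-K1 (0.44 to 0.59 and 0.45 to 0.55) and of 3 for H2-D1 (0.41 to 0.42). In turn, Ifitm2 was called without KH replicate 2 at 0 h, at -1.18 and -1.08. Isg15 was called without DNMT3ABKO replicate 2 at 0 h, at -0.91 and -0.98, and so was Bst2 for 144 h, at -0.50. Without DNMT3ABKO replicate 1 at 0 h, the calls gained for 72 h were Ly6a (-1.02), Mavs (-0.67), Irf9 (-0.58) and Ifitm3 (-0.68). Those gained for 144 h were Irf3 (0.40) and Tapbp (0.42). Of the macrophage markers, 2 of 15 had a lower response in DNMT3ABKO cells at 72 h and 7 a higher one at 144 h, and of the 22 fibroblast markers 1 had a lower response at each time.

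**Figure D4:**
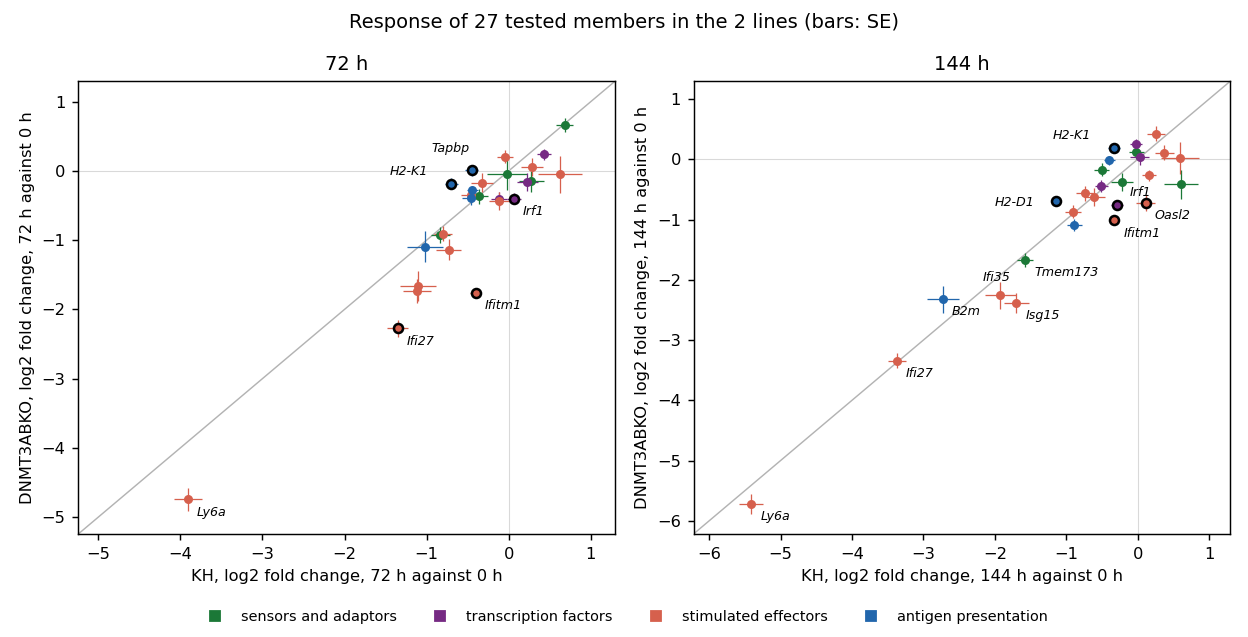
Log2 fold change against 0 h in DNMT3ABKO cells (vertical) and KH cells (horizontal) at 72 h (left) and 144 h (right) for the 27 tested members, coloured by role, with bars of 1 SE and black rings where the difference between lines was called; the grey line marks equal changes. Ifitm1 lies 1.36 below the line at 72 h and 0.69 below it at 144 h, and Ly6a is the lowest point on both axes.

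Between 72 and 144 h, 13 members went lower and 2 higher in KH cells (22.9% of all genes called, 15.6% lower and 7.24% higher), and 11 lower and 4 higher in DNMT3ABKO cells (27.3% called, 18.5% lower and 8.81% higher). B2m, Ddx58, H2-D1, Ifi27, Irf1, Isg15, Ly6a, Tap1 and Tmem173 were lower in both lines. H2-K1 and Oasl2 were higher in KH cells, and H2-K1, Ifitm1, Ifitm3 and Xaf1 in DNMT3ABKO cells. Of these calls 7 of 15 in KH and 10 of 15 in DNMT3ABKO cells held in each alternative other than the minimum fold change, and those of Oasl2 and Isg15 in KH cells were lost without any 1 of 9 (0.28 to 0.52) and 8 libraries (-0.65 to -0.51). Of the markers, 22 of 22 fibroblast and 15 of 15 macrophage genes were lower in KH cells over the same interval, and 21 and 14 in DNMT3ABKO cells, and their part in the result was not tested. With the replicate number as a block Oasl2 was no longer called in KH cells (0.43, adjusted p = 0.0840) and Ifi35 was called in DNMT3ABKO cells (-0.59, adjusted p = 0.0444). In this interval B2m changed by -1.71 (SE 0.22, adjusted p = 0.000535) in KH and -1.23 (SE 0.22, adjusted p = 0.00257) in DNMT3ABKO cells, and Ifi27 by -2.02 and -1.06.

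The rest of the pathway was read from 48 further interferon genes and 24 further genes of antigen presentation, of which 31 and 16 were tested. Of the 31, 9 were lower and 6 higher in KH cells at 72 h (48.4% called, near the 47.8% of all genes), and 17 lower and 3 higher at 144 h (64.5% against 51.3%). In DNMT3ABKO cells 13 were lower and 7 higher at 72 h (64.5% against 56%), and 19 lower and 2 higher at 144 h (67.7% against 57.6%). Lgals3bp, a secreted glycoprotein induced by interferon, had the lowest value at 144 h in both lines, -3.49 (SE 0.17, adjusted p = 1.89e-07) in KH and -3.34 (SE 0.17, adjusted p = 1.22e-07) in DNMT3ABKO cells. It went from 16.9 and 19.3 to 0.496 and 0.920 TPM in KH and from 18.1 and 19.9 to 1.35 and 0.664 TPM in DNMT3ABKO cells. Of the receptor chains, Ifngr2, for interferon gamma, changed by -1.13 and -1.54 at 144 h, both called. In KH cells Ifnar1, for type I interferon, had 18.3 and 21.1 TPM at 0 h and 20.8 and 22.4 TPM at 144 h. It was not called there at 144 h. Its DNMT3ABKO values and the other receptor chains are not described, so these genes do not stand for the receptor types. Tgtp1, a GTPase of the interferon gamma response, was higher at 144 h in both lines, at 1.23 (SE 0.15, adjusted p = 0.000116) and 0.67 (SE 0.15, adjusted p = 0.00405).

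Of the 16 further genes of antigen presentation, 6 were lower and 1 higher at 72 h in each line, so that 43.8% were called, below the 47.8% and 56% of all genes in KH and DNMT3ABKO cells. At 144 h 8 were lower and 2 higher in KH cells (62.5% against 51.3%), and 9 lower and 3 higher in DNMT3ABKO cells (75% against 57.6%). The class I-like gene H2-T22 had the lowest values at 144 h, -1.38 (SE 0.18, adjusted p = 0.000149) and -2.19 (SE 0.18, adjusted p = 4.06e-06). H2-Eb1, a class II chain, had the highest. It went from 0.588 and 0.582 to 2.04 and 2.78 TPM in KH and from 2.01 and 0.980 to 4.69 and 4.92 TPM in DNMT3ABKO cells (1.10, SE 0.18, adjusted p = 0.000622 and 1.25, SE 0.18, adjusted p = 0.000208). Between lines at 144 h, 9 of the 16 were lower in DNMT3ABKO cells and 3 were higher, where 15.5% and 11% of all genes were. The immunoproteasome subunit Psmb8 stood at 1.37 and 1.83 TPM in KH and at 0.419 and 0.412 TPM in DNMT3ABKO cells (-0.87, SE 0.13, adjusted p = 0.00113), and at 0 h the lines had 2.23 and 2.64 and 2.41 and 2.54 TPM.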

How the data were processed

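Total RNA, depleted of ribosomal RNA, had been sequenced from 12 libraries, 2 in each of 6 groups taken from the sample titles. The TPM values were deposited by the authors, 1 file per library, with STAR 2.7.3a, StringTie 2.0, cutadapt 2.4 and the mm10 build named in the submitters' processing notes. The study's methods name other versions and GENCODE annotation, with spike-in RNA added, and none of the deposited tables lists spike-in RNA. TPM are shares of a library, and total RNA per cell was not analysed here. Because TPM are not counts, the count-based test of the study's methods was not used, and no counting interval could be given. The coordinates of genes are those in the files, 1-based, on mm10.

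Values were tested as log2(TPM + 1) with limma 3.58.1 (R 4.3.3), with a trended variance, over the 15727 genes that averaged 1 TPM or more. All 6 groups shared 1 model with 6 residual degrees of freedom, from which 11 contrasts were taken. P-values were adjusted by the Benjamini-Hochberg method within each contrast, over all genes tested. The procedure was tested on simulated data. Tables and figures were made with Python 3.11.15, pandas 2.3.3, NumPy 2.4.6 and matplotlib 3.10.9. Motifs were searched on both strands in the RefSeq promoter table of GRCm38.p6.

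The members, the 48 and 24 further pathway genes and the marker lists were chosen with earlier results of these data known. All tested members are named, and of the further pathway genes those with the lowest and highest change at 144 h. Ifnar1 and the remaining fold changes of Ifngr2 and Psmb8 were chosen after their values were seen. The alternatives were a pseudocount of 0.1, no filter on low values (37364 genes), median-ratio scaling, a model with only the groups compared, the replicate number as a block, a call that also needs an absolute log2 fold change of 1, and each library left out in turn. The model reported held no block. The study's reporting summary has the time points of a biological replicate handled in parallel, and the labels do not say whether the replicate numbers mark these sets. Deviations of same-numbered libraries of a line from the group means correlated across genes with r of -0.104 to 0.0996. Results of the block are given beside the calls it changed.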

Additional observations from a re-analysis of the deposited data

Results flagged for a closer look

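For 7 members a difference between the lines in the response to mTORi was called by a test of that difference itself, an interaction of line and time (limma, adjusted p under 0.05 over all genes tested). It was called for 5 of the 27 tested members at each time, beside 5.23% and 8.59% of all genes at 72 and 144 h. Only the calls of Ifitm1 held in all 17 alternatives other than the minimum fold change. At 72 h the DNMT3ABKO response minus the KH response was -0.47 on the log2 scale for Irf1, -1.36 for Ifitm1, -0.92 for Ifi27, 0.46 for Tapbp and 0.51 for H2-K1. At 144 h it was -0.46 for Irf1, -0.83 for Oasl2, -0.69 for Ifitm1, 0.52 for H2-K1 and 0.45 for H2-D1. Groups of 2 libraries do not allow a search for single outlying samples.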

How the results depend on the processing

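No value changed its direction past the threshold under any alternative run. Of the members called at 72 and at 144 h against 0 h, 15 of 17 and 14 of 18 in KH cells and 11 of 18 and 15 of 18 in DNMT3ABKO cells kept the call in all 17 alternatives other than the minimum fold change. Between the lines 0 of 3, 2 of 8 and 4 of 8 did at 0, 72 and 144 h, and 1 of 5 differences in response (Ifitm1) at each time. The minimum absolute log2 fold change of 1 left 5, 7 and 3 members in KH cells (72 h, 144 h and 144 h against 72 h), 7, 8 and 2 in DNMT3ABKO cells, 0, 1 and 1 between the lines at 0, 72 and 144 h, and 1 and 0 differences in response at 72 and 144 h. A model of only the groups compared called 11 members in DNMT3ABKO cells at 72 h, losing Stat2, H2-D1, Tap1, Xaf1, Dhx58, Ifit2 and Irf3, 0 between the lines at 0 h and 2 differences in response at each time. With a pseudocount of 0.1, 2 differences in response were called at 72 h, and without the filter 3. The cause was not tested.

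The labels do not say that replicate numbers mark samples handled together, and a pairing did not show in the values. With the replicate block 1 member was called between the lines at 0 h and 3 differences in response at each time, the other counts staying within 1.5 times. Leaving out each library in turn gave 16 to 19 and 15 to 19 members in KH cells at 72 and 144 h, 14 to 21 and 15 to 19 in DNMT3ABKO cells, 8 to 16 and 11 to 15 for 144 h against 72 h, 0 (without KH replicate 1 at 0 h, where 9 had an unadjusted p under 0.05) to 8, 4 to 12 and 4 to 9 between the lines at 0, 72 and 144 h, and 1 to 9 and 1 to 7 differences in response. Where 1 library is left out, its group holds a lone library that is assumed to vary like the other groups. Median-ratio scaling moved the median change of all genes from 0.12 to -0.00 in DNMT3ABKO cells at 72 h. The depth of the libraries is unknown, so members near 1 TPM cannot be given a counting error.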
